A study of Mus musculus with 4 samples.

Results

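Cell proliferation genes, 38 of the 32285 genes counted in each library, were followed through single cells of the mouse brain. The members were taken by gene symbol from a fixed list, and all 38 were found in all 4 libraries. A cell was counted as cycling when its member UMIs (unique molecular identifiers, 1 for each captured RNA molecule) summed to 10 or more, and 2346 of 40390 kept cells reached that sum. Cells were assigned to types by a marker gate, which takes the list of 7 marker genes with most genes detected in the cell, at least 3 of them. A gate is a rule on a few markers and not a cluster of cells. Cells with no list at 3 markers are called ungated, and cells in which 2 lists or more share the highest number are called tied.

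The list follows the division cycle. Cyclins D1 and D2 (Ccnd1, Ccnd2) act in G1 and cyclins E1 and E2 (Ccne1, Ccne2) at the entry into S phase. The Mcm2 to Mcm7 helicase and the sliding clamp Pcna copy DNA, and Rrm1, Rrm2 and Tyms supply its nucleotides. Cdk1 with cyclins A2, B1 and B2 drives the cell into mitosis. There mitotic kinases and checkpoint proteins (Plk1, Aurka, Bub1, Bub1b) and the chromosomal passenger complex (Aurkb, Birc5, Cdca8) act. Kinetochore proteins (Cenpa, Cenpe, Cenpf) and spindle proteins (Tpx2, Nusap1, Kif11, Kif23, Prc1) act there too. Cdc20 and Ube2c serve the anaphase-promoting complex that ends mitosis. Mki67 coats mitotic chromosomes, Top2a untangles DNA and Hmgb2 bends it. Most cells of the adult brain do not divide. Known exceptions are neural progenitors of the subventricular zone, whose offspring are neuroblasts, and oligodendrocyte precursors, while microglia divide slowly at rest and more after injury, and T cells divide when activated. Some members have other uses: D cyclins are also expressed outside division, and Hmgb2 is abundant in blood cell precursors.

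The series' design text names C57BL/6 mice, aged 8 weeks (young) or 93 weeks (old), while the strain given for the samples ends in another digit for each library and was not used. They received an injection into the brain of 1000 cells of the mouse glioma line CT2A-GFP-luc, which carries green fluorescent protein and luciferase (tumour groups), or of phosphate-buffered saline (sham groups). Cells were dissociated with an adult brain kit 2 weeks later from the hemisphere that was not injected, and 3′ single-cell libraries were made. Each of the 4 groups was represented by 1 library, and how many mice went into a library is not given in the sources used here. Where 4 values follow one another without names, their order is the young sham library first, then young tumour, then old sham, and old tumour last. No difference between groups was therefore tested, and each interval is an exact 95% interval for counting error alone.

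The libraries held 62726818 to 76652484 UMIs in 10665 to 12070 barcodes, of which 9529 to 10571 were kept, with medians of 3773 to 4858 UMIs per cell. Between 100 and 137 barcodes of each library also occurred in another one. The young tumour library stood apart: it held 383 cells of a gate built on Hmga2, Xist, Cd44, Igf2bp1, Igf2bp2, Igf2bp3 and Lin28b, and the other libraries held 0. Results for that library are given with and without these cells. Removal of likely doublets took 8.53% to 9.66% of all cells, but 20.8%, 19.3%, 22.6% and 29.3% of the cells at the threshold. Many results that depend on this step are therefore given both ways, and the rest with doublets removed.

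Because the members were read out together, the sequence before their start sites is shown first. Promoter windows of 300 bases (250 before to 50 after the start, RefSeq, GRCm38.p6) were present for 31 of the 38 members, in 33 windows. Those without an entry were Mcm4, Ccnd1, Ccnd2, Ccne2, Ccna2, Aurkb and Tpx2. Both strands were searched for the cell cycle homology region (CHR, letters TTTGAA), the CCAAT box (letters CCAAT) and an E2F site (letters TTTCCCGC or TTTGGCGC). In textbook accounts CHR elements with CCAAT boxes mark late cell cycle genes and E2F sites mark genes of DNA synthesis. The windows of Top2a (chr11:99024140-99024439, minus strand), Mki67 (chr7:135716330-135716629, minus strand) and Mcm3 (chr1:20820263-20820562, minus strand) are shown as examples of the late and the early wave, with the matched letters in capitals on either strand:
Top2a: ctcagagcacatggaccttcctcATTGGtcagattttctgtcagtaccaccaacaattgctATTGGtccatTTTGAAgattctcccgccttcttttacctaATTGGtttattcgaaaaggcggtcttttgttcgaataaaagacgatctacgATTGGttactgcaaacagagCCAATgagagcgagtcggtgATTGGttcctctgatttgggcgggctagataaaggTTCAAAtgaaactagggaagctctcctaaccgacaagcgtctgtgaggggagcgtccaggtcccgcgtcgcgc
Mki67: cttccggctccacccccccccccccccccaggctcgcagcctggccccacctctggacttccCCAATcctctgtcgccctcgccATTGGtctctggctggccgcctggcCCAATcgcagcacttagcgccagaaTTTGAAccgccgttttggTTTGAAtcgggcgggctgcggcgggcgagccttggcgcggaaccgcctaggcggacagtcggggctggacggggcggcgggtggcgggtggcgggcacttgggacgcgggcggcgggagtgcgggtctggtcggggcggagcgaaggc
Mcm3: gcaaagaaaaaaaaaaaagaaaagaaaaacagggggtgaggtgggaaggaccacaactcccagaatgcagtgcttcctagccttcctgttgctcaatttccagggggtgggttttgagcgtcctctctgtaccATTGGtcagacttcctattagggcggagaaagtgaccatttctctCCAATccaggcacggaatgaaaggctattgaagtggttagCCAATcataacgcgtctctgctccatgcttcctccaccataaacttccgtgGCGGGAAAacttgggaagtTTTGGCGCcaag

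The Top2a window held 2 CHR matches and 6 CCAAT boxes, the Mki67 window 2 and 3, and the Mcm3 window 3 CCAAT boxes and 2 E2F sites. A CHR match was present in 15 of 20 mitotic members with a window (75.0%), in 1 of 9 members of replication and nucleotide supply (11.1%, Mcm2) and in 20.2% of 27025 genes. CCAAT boxes were found in 18 of the 20 (90%), 8 of the 9 (88.9%) and 41.1% of all genes. E2F letters were found in 0 of the 20, in 4 of the 9 (44.4%, Mcm3, Mcm5, Mcm6 and Mcm7) and in 1.8% of all genes. The matches did not overlap one another. A match describes letters and no bound site. In the GENCODE vM21 annotation of GRCm38, Top2a spans chr11:98992943-99024189, Mki67 chr7:135689784-135716361 and Mcm3 chr1:20802968-20820312, all on the minus strand.

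The young tumour library held more cycling cells than the other 3, in share and in number. Cells at 10 or more member UMIs numbered 448 of 10571 in young sham (4.24%, interval 3.86 to 4.64), 1073 of 10461 for young tumour (10.3%, 9.68 to 10.9), 410 of 9529 for old sham (4.30%, 3.90 to 4.73) and 415 of 9829 for old tumour (4.22%, 3.83 to 4.64). The 3 other libraries lay within one another's intervals. Just outside the threshold, 67, 103, 78 and 71 cells had 9 member UMIs, and just inside it 63, 56, 72 and 55 cells had 10. Cells at the threshold were deep: their median was 12284, 15004, 9229.5 and 15698 UMIs, against 3844, 3520, 4634 and 4750.5 in the other cells.

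A narrower count separated the old libraries from the young sham one. It asks for 5 or more UMIs of 23 mitotic members, which leaves out Mcm2 to Mcm7, Pcna, Rrm1, Rrm2, Tyms, the D and E cyclins and Hmgb2, and was chosen after values were seen. Such cells are called mitotic cells here, a name for a count and not for an observed division. They numbered 129 for young sham (1.22%, 1.02 to 1.45), 663 for young tumour (6.34%, 5.88 to 6.82), 42 for old sham (0.441%, 0.318 to 0.595) and 53 for old tumour (0.539%, 0.404 to 0.705). With no doublets removed they made up 1.47%, 6.98%, 0.71% and 1.17%, and the old tumour interval (0.972 to 1.39) then overlapped that of young sham (1.26 to 1.70). After thinning of each cell to 2000 UMIs, cells with 3 or more mitotic UMIs made up 1.06%, 5.33%, 0.262% and 0.193%, with 1546, 1586, 1145 and 1024 shallower cells left out.

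**Figure D1:**
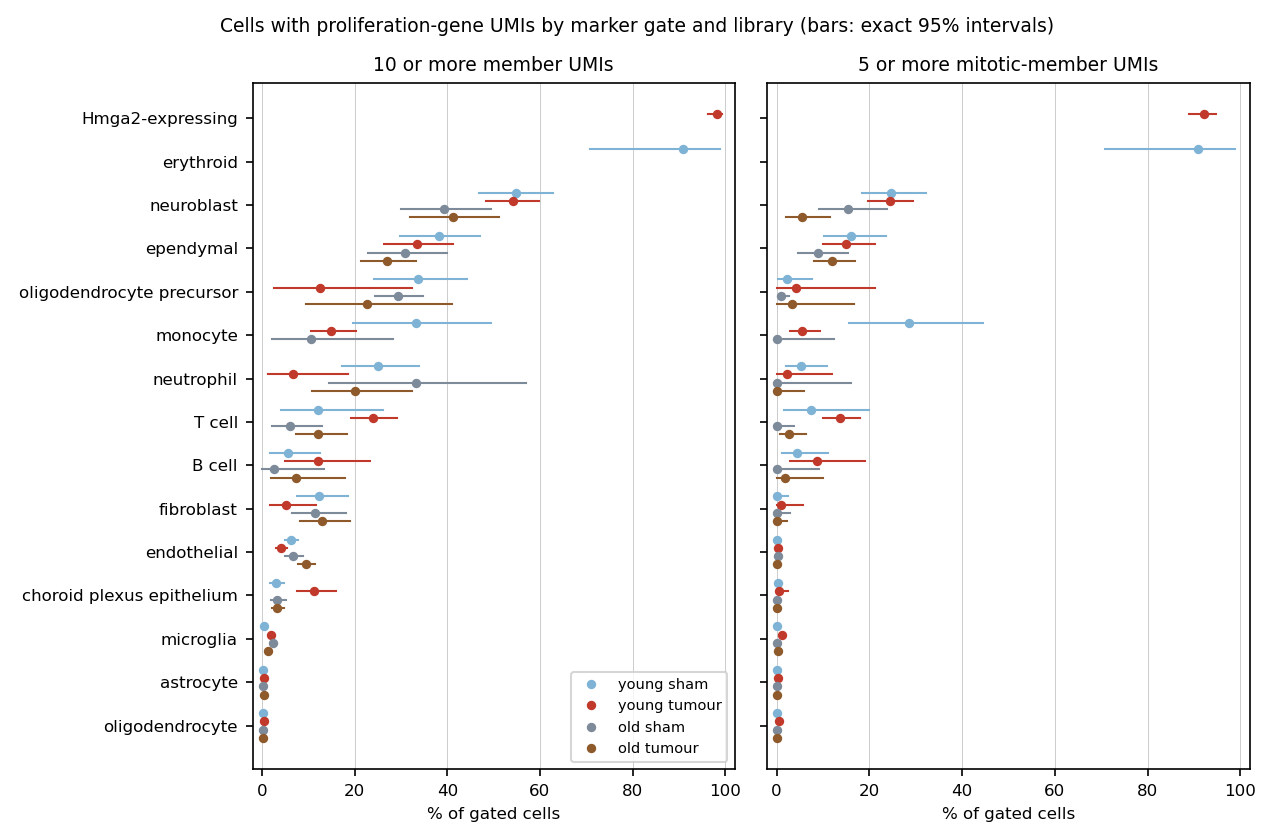
Share of gated cells with 10 or more member UMIs (left) and with 5 or more mitotic UMIs (right), in percent, by marker gate and library, with exact 95% intervals as bars and gates of 20 or more cells drawn. The Hmga2-expressing gate of young tumour (98.2% and 92.2%) and the erythroid gate of young sham (90.9% in both) lie far right in both panels, while oligodendrocyte precursor, fibroblast, endothelial and choroid plexus gates have points on the left that drop towards 0 on the right.

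Which members made up the sum differed between gates. Mitotic members gave 57.9% of the member UMIs of threshold cells in the Hmga2-expressing gate, 53.7% in the erythroid gate of young sham and 49.6% in the T cell gate of young tumour. In old sham they gave 3.49% in the oligodendrocyte precursor gate, where D cyclins gave 70.2%, and in old tumour 3.03% in the endothelial gate, where D cyclins gave 55.7%. The neutrophil gate of old tumour was carried by Hmgb2, with 94.6%. Reaching 10 member UMIs therefore described different sets of RNAs in different gates.

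**Figure D2:**
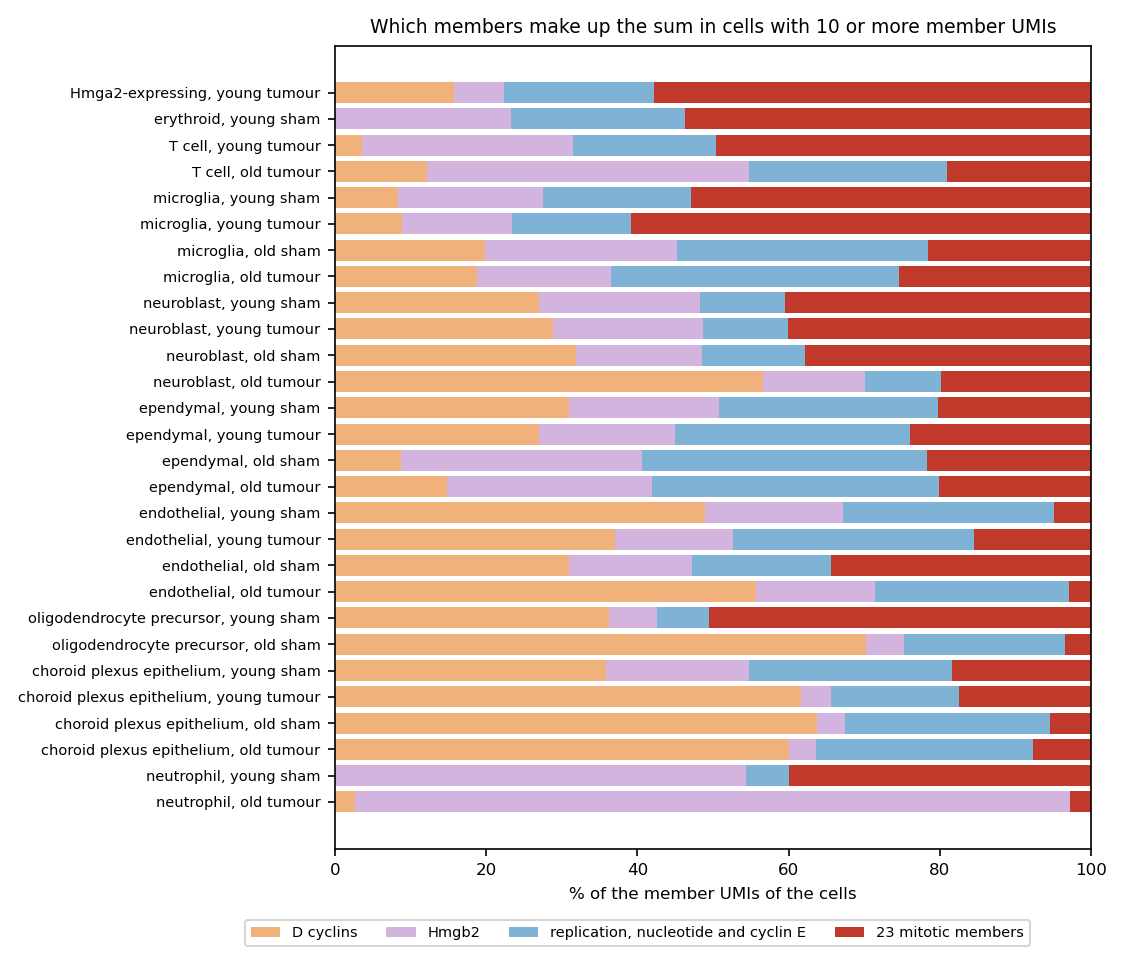
Percent of the member UMIs of threshold cells that came from D cyclins, Hmgb2, members of replication and nucleotide supply with cyclin E, and the 23 mitotic members, 1 bar for each gate and library. Bars with 12 or more threshold cells are drawn. The mitotic part takes 60.9% in the microglia bar of young tumour and 2.68% in the neutrophil bar of old tumour.

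The Hmga2-expressing gate was nearly all cycling. Of its 383 cells, 376 reached the threshold (98.2%, 96.3 to 99.3) and 353 were mitotic (92.2%, 89.0 to 94.7), and after thinning 64.2% had 3 or more mitotic UMIs. Mki67 was detected in 71.8% and Top2a in 89.0% of them, at a median of 25929 UMIs per cell, while Mki67 was detected in 1.27% of cells of the mature neuron gate in the same library, at a median of 3886 UMIs. The gate made up 3.66% of the library's cells, 18.3% of its UMIs, 53.1% of its member UMIs and 64.4% of its mitotic UMIs. For 31 of the 38 members more than 50% of the UMIs of young tumour lay in it. The part was highest for cyclin E1 (Ccne1, 74.2%) and the checkpoint kinase Bub1 (74.1%), and lowest for Ccnd2 (10.2%) and Hmgb2 (26.6%).

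The markers of this gate reached beyond it. A cluster led by Hmga2 held 436 cells of young tumour and 1 of old tumour, among them 20 tied, 15 ungated, 7 microglia-gated and 2 T cell-gated cells of young tumour. Of the 57 ungated mitotic cells of young tumour, 5 had a Xist UMI and 11 an Hmga2 UMI, and of the 29 tied ones 17 and 16. These ungated and tied mitotic cells had medians of 12147 and 22191 UMIs. In cells of young tumour below the threshold, at a median of 3520 UMIs, 0.362% had a Xist UMI and 1.07% an Hmga2 UMI. Without cells that carried a UMI of either gene, the mitotic share of young tumour was 6.12% (12 of 196) in place of 13.1% among tied cells and 7.37% (46 of 624) in place of 8.82% among ungated cells. It was 23.8% (74 of 311) in the neuroblast gate, 14.4% (23 of 160) in the ependymal gate and 0.219% (4 of 1830) in the astrocyte gate. In the T cell and microglia gates it is given with their results.

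Neuroblast-gated cells (markers Dcx, Dlx1, Dlx2, Dlx6os1, Sp9, Igfbpl1 and Sox11) were cycling in all 4 libraries. The threshold was reached by 89 of 162 young sham cells (54.9%, 46.9 to 62.8), 171 of 316 young tumour cells (54.1%, 48.4 to 59.7), 41 of 104 old sham cells (39.4%, 30 to 49.5) and 45 of 109 old tumour cells (41.3%, 31.9 to 51.1). All 7 markers were detected in the threshold cells of each library. Much of the sum was cyclin D2: Ccnd2 stood at 3539.4, 3683.8, 3321.7 and 3349.0 CPM (UMIs per 1000000 UMIs of the cells summed) and was detected in 78.9% to 87.7% of the cells. Ccnd2 thus differed little between libraries.

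Mitotic cells made up 40 of the 162 neuroblast-gated cells of young sham (24.7%, 18.3 to 32.1), 77 of 316 of young tumour (24.4%, 19.7 to 29.5), 16 of 104 of old sham (15.4%, 9.06 to 23.8) and 6 of 109 of old tumour (5.50%, 2.05 to 11.6). With no doublets removed the same gate had 26.6%, 25.1%, 21.2% (25 of 118) and 18.3% (24 of 131), and the 4 intervals overlapped. The low value of old tumour therefore rested on doublet removal. Depth did not differ as much, with gate medians of 3488.5 to 3690 UMIs, and after thinning the shares were 27%, 25.1%, 16.7% and 4.44%.

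Old tumour was also set apart by member levels in the neuroblast gate. Top2a, which stood at 664 CPM for young sham and 594 for young tumour, had 648 CPM in old sham and 110 in old tumour. Mki67 stood at 317, 302, 356 and 60.7 CPM, and Rrm2, a subunit of ribonucleotide reductase, at 287, 240, 251 and 28.2 CPM. Old tumour was lowest for these 3 genes and the other libraries lay close together. Calls were made by size: a ratio of CPM of 1.5 or more in either direction with its interval on that side of 1, for genes with 20 or more UMIs over both libraries. In young tumour against young sham, 2 of 38 members were higher (background 3.14% of all genes), Ccnd1 (52 against 7 UMIs) and Ccne1 (42 against 7), and 1 was lower (background 2.45%), Aurkb at a ratio of 0.625 (0.461 to 0.85).

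In old tumour against old sham, 24 of 35 members counted in the neuroblast gate were lower (background 6.51%), among them Top2a (ratio 0.17, 0.124 to 0.23), Mki67 (0.17, 0.11 to 0.256) and Rrm2 (0.112, 0.058 to 0.2), and with no doublets removed 14 of 38 were lower (background 5.23%), with Top2a at 0.679 and Mki67 at 0.622. Against young tumour, old tumour had 35 of 38 lower (background 7.16%), and 6 with no doublets removed (background 4.49%). Old sham against young sham had 12 of 35 lower (background 4.16%), and with no doublets removed 0 lower (background 3.09%) and 3 higher (background 6.26%). The age and tumour differences of this gate thus ended or shrank when likely doublets were kept.

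T cell-gated cells (Cd3d, Cd3e, Cd3g, Trac, Trbc2, Cd8a, Cd4) were more numerous in the tumour libraries, and their cycling share was highest in young tumour. The threshold was reached by 5 of 41 young sham cells (12.2%, 4.08 to 26.2), 74 of 309 young tumour cells (23.9%, 19.3 to 29.1), 6 of 98 old sham cells (6.12%, 2.28 to 12.9) and 19 of 157 old tumour cells (12.1%, 7.45 to 18.3). Mitotic cells numbered 3 (7.32%, 1.54 to 19.9), 42 (13.6%, 9.97 to 17.9), 0 (0%, 0 to 3.69) and 4 (2.55%, 0.698 to 6.39). Young sham is too small to place, while the interval of young tumour did not overlap that of either old library. Without cells that carried Xist or Hmga2 the young tumour share was 13.2%, without cells that reached a second gate 11.8%, and with no doublets removed 15%.

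Within the T cell gate of young tumour, cells with a Cd8a UMI and no Cd4 UMI reached the threshold in 42 of 131 cases (32.1%, 24.2 to 40.8), those with Cd4 and no Cd8a in 12 of 58 (20.7%, 11.2 to 33.4) and those with neither in 18 of 116 (15.5%, 9.46 to 23.4). The Cd8a interval overlapped the Cd4 interval and not that of cells with neither, whose median depth was lower (3508 against 4593 UMIs). In old tumour the Cd8a cells reached it in 11 of 89 cases (12.4%, 6.33 to 21.0). Mki67 in the gate stood at 186, 146, 5.50 and 27.7 CPM and Top2a at 197, 177, 22.0 and 48.2 CPM. Both young libraries were above both old ones, but young sham had Mki67 in 3 and Top2a in 4 of its 41 cells. Young tumour against young sham had 1 of 37 members higher and 2 lower, beside 402 and 221 of 7194 genes. Old tumour against young tumour had 33 of 37 members lower (background 11.9%) and 1 higher, Ccnd2 (365 against 216 CPM, ratio 1.69, 1.43 to 1.99). The sum of mitotic members was 207 CPM in old tumour and 93.5 CPM in old sham, a ratio of 2.22 (1.52 to 3.32) on 142 and 34 UMIs.

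Microglia-gated cells (P2ry12, Tmem119, Siglech, Gpr34, Fcrls, Olfml3, Sall1) were the largest gate, and few of them were cycling. Mitotic cells numbered 6 of 3697 for young sham (0.162%, 0.0596 to 0.353), 37 of 3019 for young tumour (1.23%, 0.864 to 1.69), 4 of 2497 for old sham (0.16%, 0.0437 to 0.41) and 6 of 2419 for old tumour (0.248%, 0.0911 to 0.539). Young tumour lay above the other 3, with a ratio to young sham of 7.55 (3.16 to 21.9). Of its 37 mitotic cells, 7 carried a Hmga2 UMI and 7 a Xist UMI, and without cells that carried either the share was 1.01% (0.681 to 1.44). Without cells that reached a second gate the 4 shares were 0.113%, 0.875%, 0.167% and 0.26%, and with no doublets removed 0.325%, 1.81%, 0.35% and 0.439%. Thinning gave 0.21%, 1.18%, 0.128% and 0.176%.

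The wider sum gave another order in the microglia gate. The threshold was reached by 20 young sham cells (0.541%, 0.331 to 0.834), 63 young tumour cells (2.09%, 1.61 to 2.66), 63 old sham cells (2.52%, 1.94 to 3.22) and 31 old tumour cells (1.28%, 0.872 to 1.81). In old sham mitotic members gave 21.4% of the sum and Hmgb2 25.4%, and Mki67 or Top2a was detected in 6 of the 63 cells. In young tumour mitotic members gave 60.9%, and Mki67 or Top2a was detected in 38 of 63. Median depth over the whole gate was 4961 UMIs in old sham and 3633 in young sham. The shared threshold thus took mitotic profiles in young tumour and mostly other members in old sham.

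By gene, mitotic members were higher in the microglia gate of young tumour, while the helicase genes, Pcna and the D cyclins had no call. Top2a stood at 9.59, 26.0, 3.58 and 2.07 CPM, Mki67 at 7.28, 18.5, 2.03 and 1.16 CPM and Ube2c, the ubiquitin-conjugating enzyme of the anaphase-promoting complex, at 4.69, 28.8, 1.17 and 1.24 CPM. Young tumour was highest for each. Their ratios to young sham were 2.72 (2.21 to 3.36), 2.53 (1.99 to 3.25) and 6.15 (4.7 to 8.15). Pcna stood at 56.2, 60.2, 61.8 and 57.3 CPM, Mcm3 at 34.6, 34.0, 40.8 and 37.8 CPM and Ccnd1 at 155, 140, 160 and 130 CPM, with no call between the young libraries. Ccnd1 was detected in 30.3% to 45.3% of microglia-gated cells.

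In young tumour against young sham, 25 of 38 members were higher in the microglia gate, the 23 mitotic ones with Rrm2 and Ccne1 (background 6.76%), and 29 with no doublets removed (background 7.82%). Old tumour against young tumour had 26 of 37 lower (background 6.59%). Old sham against young sham had 18 of 34 lower (background 9.61%), but 3 of 37 with no doublets removed (background 10.6%), so that age difference rested on doublet removal. Markers moved with these counts: the 7 microglia markers summed to 2242.4 CPM in the threshold cells of young tumour and 9425.1 CPM in the other cells of the gate, and the highest other list in the former was the Hmga2-expressing one at 606 CPM. In young sham the microglia markers summed to 5698.3 CPM in threshold cells against 11013.5 CPM in the others, with fibroblast markers at 3742.8 CPM. In old tumour they summed to 4986.8 against 8259.1 CPM, with fibroblast markers at 2908.4 CPM. The part of these markers in the counts was not tested. In young sham a few cells carried the counts: its 133 Top2a UMIs lay in 11 cells, and 86.5% of them in the 5 highest, against 50.8% of 299 UMIs in 51 cells of young tumour.

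**Figure D3:**
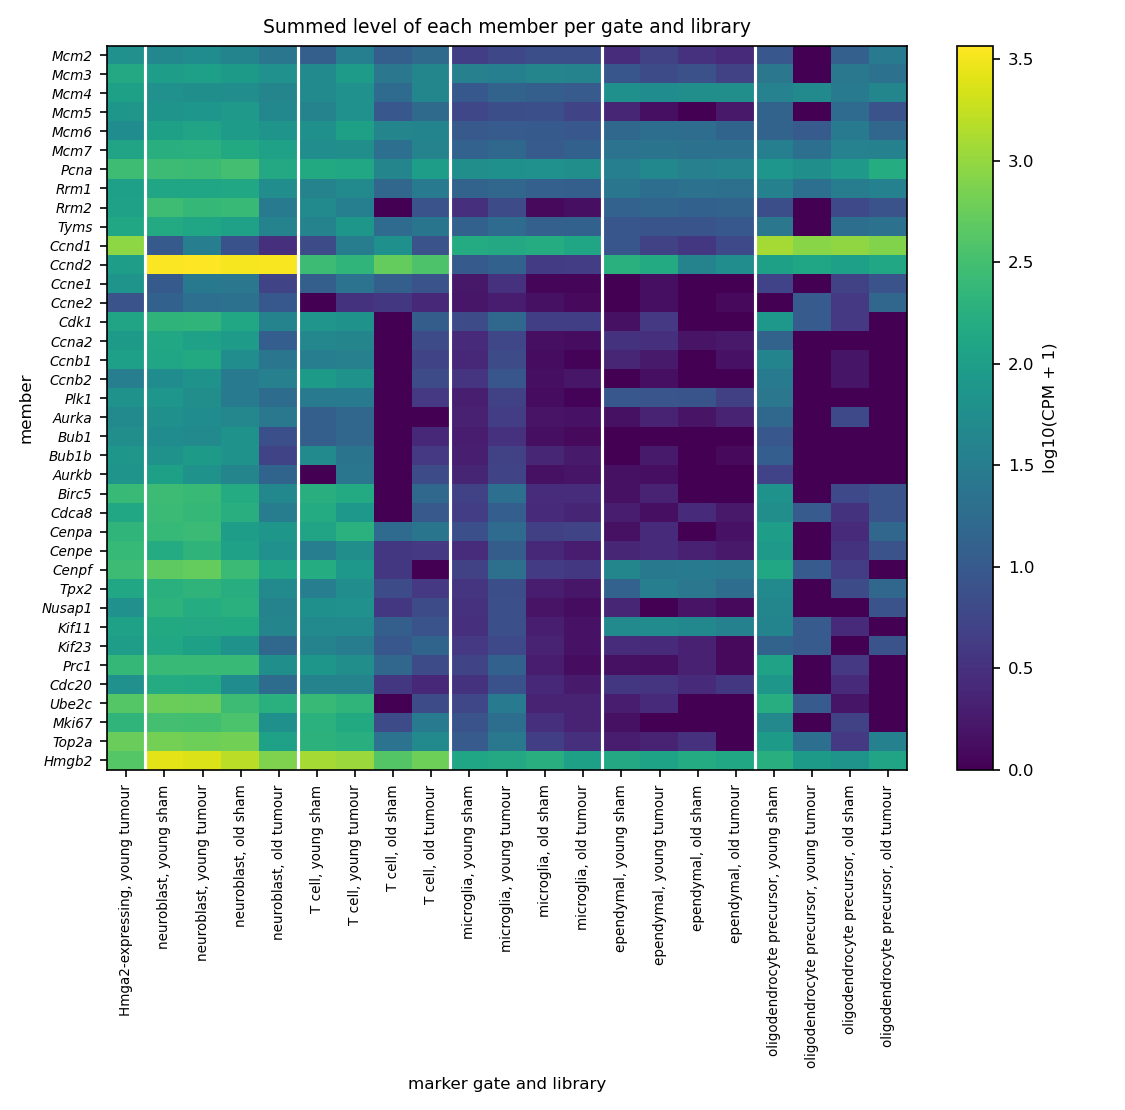
Summed level of each member, as log10 of CPM plus 1, for 6 gates and each library, with members in rows in the order of their roles. Ccnd2 and Hmgb2 are brightest in the neuroblast columns, Ccnd1 in the oligodendrocyte precursor and Hmga2-expressing columns, and mitotic members are dark in the microglia columns of old sham and old tumour.

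Gates of blood lineages carried part of the signal of young sham. The erythroid gate held 22 cells there, 20 of them at the threshold and 20 mitotic (90.9%, 70.8 to 98.9), with Mki67 at 1192.0 CPM, Birc5 (survivin) at 1046.6 and Top2a at 644 CPM. It held 3 cells in young tumour and 0 in both old libraries, and gave 16.7% of the mitotic UMIs of young sham. Monocyte-gated cells reached the threshold in 14 of 42, 33 of 220, 3 of 28 and 6 of 19 cases, of which 12, 12, 0 and 3 cells were mitotic. Neutrophil-gated cells reached it in 29 of 116, 3 of 44, 7 of 21 and 12 of 60 cases, and 6, 1, 0 and 0 were mitotic. Hmgb2 gave 54.3%, 95.7% and 94.6% of their sum in young sham, old sham and old tumour. Of the neutrophil-gated threshold cells, 26, 2, 3 and 2 reached a second gate. Without cells of a second gate, 0 of 67 neutrophil-gated and 9 of 35 monocyte-gated cells of young sham were mitotic. In the monocyte-gated threshold cells of young sham, neutrophil markers summed to 6056.1 CPM and monocyte markers to 7022.7 CPM. The part of a second cell in these barcodes was not tested. B cell-gated cells reached the threshold in 5 of 90, 7 of 58, 1 of 39 and 4 of 54 cases, with 4, 5, 0 and 1 mitotic. With no doublets removed, 15 of 45, 19 of 232, 2 of 34 and 7 of 25 monocyte-gated cells were mitotic. For neutrophil-gated cells the counts were then 11 of 128, 1 of 46, 0 of 38 and 9 of 97. For B cell-gated cells they were 4 of 93, 6 of 64, 0 of 41 and 7 of 69. The mitotic counts of old tumour in these gates therefore depended on doublet removal. The comparison of the sham libraries is also given without the erythroid, monocyte and neutrophil gates.

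Oligodendrocyte precursor-gated cells often reached the threshold and were seldom mitotic. The counts were 31 of 92 (33.7%), 3 of 24 (12.5%), 95 of 323 (29.4%) and 7 of 31 (22.6%), of which 2, 1, 3 and 1 cells were mitotic. Ccnd1 stood at 1216.6, 851, 951 and 765 CPM and was detected in 66.7% to 88.5% of these cells. Top2a was detected in 3, 1, 2 and 2 cells. In young sham, 50.6% of the sum came from mitotic members although 2 of the 31 threshold cells were mitotic, and its 41 Top2a UMIs lay in 3 cells.

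Ependymal-gated cells passed both counts without the usual marks of division. The threshold was reached by 50 of 131, 56 of 167, 38 of 123 and 61 of 226 cells, and 21, 25, 11 and 27 cells had 5 or more mitotic UMIs. Mki67 or Top2a was detected in 3, 1, 1 and 0 of the threshold cells. Their sum held Hmgb2 (19.9%, 18%, 31.8% and 27.1%), D cyclins (30.9%, 27%, 8.75% and 14.8%) and mitotic members (20.1%, 23.9%, 21.7% and 20.1%). Members detected in the gate included the spindle motor Kif11 (48.4, 51.2, 45.6 and 36.3 CPM), the kinetochore protein Cenpf (42.3, 26.6, 27.6 and 25.9 CPM), Tpx2 (12.1, 32.0, 25.3 and 17.7 CPM) and Mcm4 (61.4, 53.7, 57.5 and 56.2 CPM). Ependymal cells carry motile cilia, and several spindle proteins also act on microtubules elsewhere. Their threshold cells had medians of 27996 to 43826 UMIs, and 49 of 50, 56 of 56, 38 of 38 and 61 of 61 of them also reached a second gate. After thinning 0.877% and 1.32% of the young cells had 3 or more mitotic UMIs. In old sham 0 of 108 cells did and in old tumour 0 of 186, where 3 cells would make 2.78% and 1.61%. The part of depth and of a second cell in these barcodes was not tested.

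Cells at the threshold were seldom mitotic in the vascular, meningeal and choroid plexus gates too. Endothelial-gated cells reached the threshold in 75 of 1192 (6.29%), 44 of 1078 (4.08%), 50 of 741 (6.75%) and 100 of 1058 cases (9.45%), and 0, 3, 2 and 0 were mitotic. With no doublets removed, 1 of 1322 endothelial-gated cells was mitotic in young sham, 10 of 1207 in young tumour and 3 of 811 in old sham. Their threshold cells had 14585 to 17501.5 UMIs at the median, and 56, 32, 28 and 54 of them reached a second gate. In old sham all 34 endothelial Top2a UMIs lay in 2 cells. Acta2, the actin of smooth muscle, was 17.8, 10.4, 7.99 and 19.7 times as high in endothelial threshold cells as in the other cells of the gate. Choroid plexus-gated cells reached it in 15 of 506, 26 of 230, 17 of 515 and 29 of 875 cases with 1, 1, 0 and 0 mitotic, and fibroblast-gated cells in 19 of 153, 5 of 97, 15 of 131 and 21 of 163 cases with 0, 1, 0 and 0 mitotic.

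The large glial and neuronal gates held few cycling cells. In the astrocyte gate the threshold was reached by 0.282%, 0.538%, 0.223% and 0.409% of cells, with 4, 6, 2 and 0 mitotic cells among 1791 to 2479. In the oligodendrocyte gate it was reached by 0.208%, 0.573%, 0.206% and 0.175%, with 1, 5, 0 and 0 mitotic. With no doublets removed, 5 of 2592, 22 of 2001, 3 of 1868 and 4 of 2069 astrocyte-gated cells were mitotic. For oligodendrocyte-gated cells the counts were then 4 of 1039, 17 of 1334, 3 of 2576 and 0 of 1805. Mature neuron-gated cells reached the threshold in 1 of 104, 0 of 79, 1 of 101 and 0 of 128 cases. None of them was mitotic, with interval ends of 3.48%, 4.56%, 3.59% and 2.84%. Young tumour also held 108 threshold cells among 646 ungated and 56 among 221 tied cells, of which 57 and 29 were mitotic, or 46 and 12 without cells that carried a Xist or Hmga2 UMI.

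Over all kept cells, every member was higher in young tumour than in young sham by the size rule. Member UMIs summed to 774 CPM for young sham, 2210.2 for young tumour, 503 and 418 in the old libraries. In young tumour against young sham 38 of 38 members were higher (background 11.5%), with a median log2 ratio of 1.95 against -0.12 over all genes counted. Without the Hmga2-expressing gate 29 were higher (background 7.08%), with a median of 0.99, and without the Hmga2-led cluster as well 26 were (background 6.34%). All 23 mitotic members were among the 29. In such sums more cycling cells and more RNA in each cannot be told apart.

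The ratio was smaller for replication than for mitosis. Members of licensing and the fork summed to 318 CPM against 145 (ratio 2.19, 2.14 to 2.25), nucleotide supply to 113 against 43.2 (2.61, 2.49 to 2.73), and the mitotic members to 1054.2 against 211 CPM (5.0, 4.9 to 5.1), or 460 against 211 without the Hmga2-expressing gate (2.18, 2.13 to 2.23). Pcna stood at 63.9, 120, 66.4 and 61.4 CPM. Mcm3 stood at 20.5, 50, 18.1 and 14.2 CPM and Mcm4 at 18.2, 37.0, 18.2 and 17.0 CPM. For these 3 genes the libraries other than young tumour lay close together. Without the Hmga2-expressing gate the ratio of young tumour to young sham was under 1.5 for each, at 1.27 for Pcna, 1.43 for Mcm3 and 1.21 for Mcm4. Tyms, which makes thymidylate, stood at 12.8, 41.9, 8.04 and 8.20 CPM, Rrm1 at 18.3, 38, 16.8 and 15.1 CPM, and Rrm2 at 12.1, 32.7, 3.22 and 2.03 CPM.

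Among the cyclins of G1 and S phase, Ccnd1 stood at 74.0, 244, 93.6 and 54.6 CPM, a ratio of young tumour to young sham of 3.30 (3.19 to 3.42) that was 1.27 without the Hmga2-expressing gate and 1.02 without the Hmga2-led cluster as well. Ccnd2 stood at 111, 174, 71.7 and 80.1 CPM, with ratios of 1.56 and, without the gate, 1.72. Ccnd1 of young tumour thus lay with the Hmga2-expressing cells and Ccnd2 outside them. Ccne1 stood at 2.60, 17.1, 1.24 and 0.758 CPM, a ratio of 6.59 (5.52 to 7.91).

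The entry into mitosis showed larger ratios. Cdk1 stood at 10.5, 39.6, 3.88 and 3.80 CPM (ratio of young tumour to young sham 3.75, and 2.04 without the gate), Ccnb1 at 4.74, 28.2, 0.721 and 0.510 CPM (5.95 and 2.43) and Ccna2 at 5.07, 24.3, 1.11 and 0.526 CPM (4.78 and 2.04). The old libraries were below young sham for all of these. The checkpoint protein Bub1b stood at 2.77, 21.0, 1.20 and 0.557 CPM (7.60 and 3.06) and Plk1 at 3.34, 18.2, 0.739 and 0.680 CPM (5.46 and 2.13). Birc5 of the passenger complex stood at 14.8, 73.2, 2.48 and 1.56 CPM (4.94 and 2.12).

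The kinetochore motor Cenpe had the largest ratio of the 38, with 6.27, 60.9, 3.31 and 1.73 CPM (9.71, 8.69 to 10.9, and 3.25 without the gate). Cenpf stood at 15.3, 81.8, 5.23 and 4.17 CPM and the centromere histone Cenpa at 15.6, 66.0, 4.93 and 4.72 CPM. Prc1, which bundles the central spindle, stood at 10.6, 61.1, 4.31 and 1.79 CPM (5.79 and 2.04), and Ube2c at 22.1, 119, 3.35 and 2.27 CPM (5.37 and 2.28). All of these kept a ratio above 2 outside the Hmga2-expressing gate. Top2a stood at 21.8, 149, 7.32 and 2.61 CPM (6.83, 6.43 to 7.27, and 2.52), Mki67 at 18.0, 65.9, 5.27 and 1.81 CPM (3.66 and 1.77) and Hmgb2 at 185, 287, 107 and 90.6 CPM (1.55 and 1.39).

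**Figure D4:**
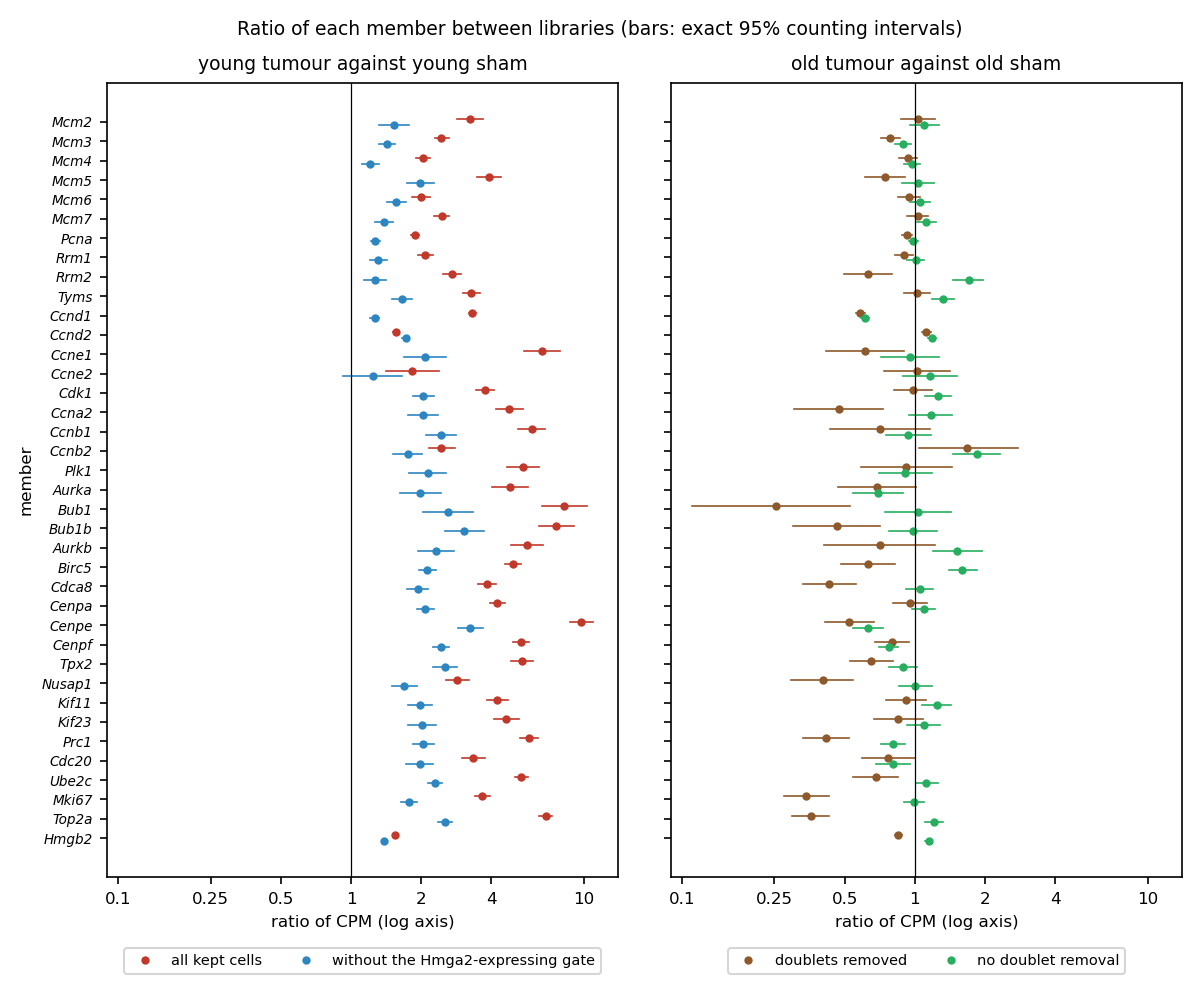
Ratio of CPM of each member between libraries on a log axis, with exact 95% counting intervals as bars. In the left panel (young tumour against young sham) all red points for all kept cells lie above 1.5 and 37 of the 38 blue points, without the Hmga2-expressing gate, lie closer to 1. In the right panel (old tumour against old sham) the points with doublets removed and with no doublet removal differ for mitotic members such as Top2a, Mki67 and Birc5.

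The comparison of tumour with sham in old mice depended on doublet removal. With doublets removed 1 member was higher (Ccnb2, background 6.6%) and 14 were lower (background 7.38%), among them Top2a (ratio 0.357, 0.296 to 0.429), Mki67 (0.343, 0.275 to 0.427) and Prc1 (0.417, 0.33 to 0.523), with a median log2 ratio of -0.40 against -0.07 over all genes. The 23 mitotic members summed to 41.0 against 64.6 CPM (0.635, 0.603 to 0.668), and with no doublets removed to 137 against 133 CPM (1.03, 1.0 to 1.06). With no doublets removed 4 were higher (background 6.49%), namely Rrm2, Ccnb2, Aurkb and Birc5, and 2 lower (background 7.93%), Ccnd1 and Cenpe, with a median of 0.06. Top2a then had a ratio of 1.21 (1.11 to 1.32) and Mki67 of 0.994 (0.903 to 1.09). Ccnd1 kept its call, at 0.583 (0.558 to 0.609) and at 0.61 (0.586 to 0.634). The neuroblast gate, which held 43.5% of the mitotic UMIs of old sham and 18.9% of those of old tumour, showed the same dependence.

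Between ages the members were lower in the old libraries. Old sham against young sham had 29 of 38 lower (background 7.6%) and 0 higher, with a median log2 ratio of -1.24, and 20 lower with no doublets removed (background 6.57%), with a median of -0.61. Ube2c stood at 22.1 CPM for young sham and 3.35 for old sham (ratio 0.151, 0.129 to 0.177) and Ccnb1 at 4.74 and 0.721 CPM (0.152, 0.106 to 0.214). Pcna (1.04, 0.991 to 1.09), Mcm4 (0.998, 0.913 to 1.09) and Ccnd1 (1.27, 1.21 to 1.32) had no call. Without the erythroid, monocyte and neutrophil gates, which held more mitotic cells in young sham than in old sham, 25 were lower (background 6.97%). The B cell gate stayed in, with 4.58% of the mitotic UMIs of young sham and 0.401% of those of old sham. Old tumour against young tumour had 38 of 38 lower (background 13.2%) with a median of -4.02, and 35 without the Hmga2-expressing gate (background 9.32%) with a median of -2.84. These comparisons share libraries with those of tumour and sham.

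A further 60 cell cycle genes that are not members were followed as a list. In young tumour against young sham 54 of 60 were higher and 0 lower, and 41 without the Hmga2-expressing gate. By class, 28 of 30 genes of G2 and mitosis, 19 of 20 of replication and S phase, 5 of 6 transcription factors and 2 of 4 partners of the D cyclins were higher. In old tumour against old sham 2 were higher and 17 lower, in old sham against young sham 1 and 35, and in old tumour against young tumour 0 and 55. The same backgrounds as for the members apply. All counts of the 60 genes are given with doublets removed only. The lower calls of the members in old tumour against old sham went from 14 to 2 with no doublets removed. In old sham against young sham they went from 29 to 20.

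The 60 genes were also compared between threshold cells and the other cells of a gate. In the T cell gate of young tumour 46 of 47 counted genes were higher in threshold cells than in the other cells of the gate (background 17.2%), in the neuroblast gate of young sham 49 of 51 (background 11.8%) and in the microglia gate of young tumour 44 of 48 (background 17.7%). The microglia gate had 32 of 34 higher in young sham, 23 of 27 in old sham and 20 of 27 in old tumour (backgrounds 12.8%, 4.89% and 9.13%). Oligodendrocyte precursor-gated cells had 8 of 11 in young sham and 8 of 15 in old sham (backgrounds 4.1% and 2.27%). Monocyte-gated cells of young tumour had 23 of 24 (background 9.64%). Of the UMIs in oligodendrocyte precursor threshold cells of young sham, 1 cell held 53.7% for Smc2, 48.0% for Smc4 and 42.1% for Tubb5. In old sham the highest cell of that gate held 11.1%, 21.7% and 4.51%. In ependymal threshold cells 0 of 14, 3 of 16, 0 of 12 and 0 of 18 were higher (backgrounds 5.79%, 3.69%, 2.23% and 4.84%). In endothelial ones the counts were 1 of 18, 8 of 19, 6 of 20 and 0 of 20 (backgrounds 7.58%, 7.77%, 4.45% and 5.44%), so that young tumour and old sham lay above their backgrounds. The endothelial gates of young tumour and old sham held only 3 and 2 mitotic cells. There 1 cell held 15.1% and 43.7% of the Smc4 UMIs of threshold cells. The threshold itself used the members in the same cells, so these counts describe the cells and test nothing.

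Among other genes, those with the highest ratios in threshold cells differed between gates. In T cell-gated cells of young tumour the highest of the 60 were Hmmr, Tacc3, Cks1b, Kif4 and Spc25, and the highest of all others began with Pclaf, a Pcna-binding factor (292 against 2.21 CPM), and included the histone chaperone Asf1b. Col3a1, Fgfr1 and Cxcl9 also ranked there, but 1 cell held 79.2%, 86.8% and 76.6% of their UMIs. In the neuroblast gate Smc4, Cks2, Hells, Hmmr and Dut led the 60, and Pclaf, Clic1, Mdk, Lockd and Odc1 the others, with Smc4 10.7, 9.23, 7.60 and 9.28 times as high in threshold cells. In the microglia gate Stmn1, a tubulin-binding protein, was 24.7 (21.4 to 28.5), 12.6 (11.2 to 14.1), 6.44 (5.37 to 7.70) and 5.80 (4.50 to 7.39) times as high. Of its UMIs in threshold cells, 1 cell held 39.9%, 9.34%, 33.5% and 13.2%. Spp1 (osteopontin) was 8.05, 11.6, 37.0 and 25.9 times as high, but 1 cell held 100%, 19.9%, 99.8% and 98.1% of its UMIs in threshold cells. Vim was 19 times as high in young tumour, where 39 of the 63 threshold cells had it.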

How the data were processed

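Single-cell 3′ libraries of 4 groups, 1 library each, were analysed from the deposited matrices, which hold raw UMI counts that the authors did not normalize. Per the submitters' processing notes the tools were Cell Ranger 3.0.2 and Seurat 2.3.4 with mm10. The matrix headers instead name Cell Ranger 6.1.0, and which one made the files is not given in the sources used here. Groups follow the labels.

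Barcodes with at least 500 UMIs, 200 genes and at most 20% mitochondrial UMIs were kept. Doublets were scored with Scrublet (scanpy 1.11.5) and the highest removed at 0.8% per 1000 barcodes, which left 40390 of 46097. Of 154 markers in 22 lists, 153 were found. UMIs were summed per library and gate and divided by the total of the kept cells or gate (CPM). Shares carry exact Clopper-Pearson intervals and ratios exact conditional Poisson intervals (scipy 1.17.1). A count of 0 was replaced by 3 counts in ratios. PCR and capture make these intervals cover counting error only. Depth was 3773 to 4858 UMIs per kept cell at the median. Clusters (Leiden, resolution 1, 15 neighbours, 30 components, 2000 variable genes, igraph 0.11.9) served as an alternative to gates. Named genes are, for each role, up to 3 members with most UMIs and, for threshold cells against others, the 5 highest of the pathway list and of other genes with 20 or more UMIs in each library with 20 or more such cells. Gm-number, Rik, mitochondrial, ribosomal protein and hemoglobin genes were left out. Other members are named for their values.

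The members and lists were chosen with earlier results of these data known. The mitotic count, the subsets by Xist, Hmga2 and second gate, the settings without blood gates and without the Hmga2-led cluster, and the gates and motifs described were chosen after values were seen. The ratio procedure was tested on simulated data. Alternatives were thresholds of 5 and 20, the sum without Ccnd1, Ccnd2 and Hmgb2, thinning to 2000 UMIs, no doublet removal, a filter of 1000 UMIs and 10% mitochondrial, gates at 2 markers, no second gate, clusters, median-centred ratios, and minimums of 0 or 100 UMIs.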

Additional observations from a re-analysis of the deposited data

Results flagged for a closer look

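Tumour against sham went in opposite directions in young and old mice for a number of results, called in each direction by the size rule. With 1 library per group the difference between the ages was not tested. The sum of the 23 mitotic members had a ratio of tumour to sham of 5.0 in young and 0.635 in old mice. With no doublets removed these were 4.67 and 1.03, so the old call ended, and without the Hmga2-expressing gate the young ratio was 2.18. Among mitotic members the ratios in young and old were 4.78 and 0.474 for Ccna2, 8.2 and 0.254 for Bub1, 7.6 and 0.463 for Bub1b, 4.94 and 0.631 for Birc5, and 3.83 and 0.43 for Cdca8. Cenpe had 9.71 and 0.524, Tpx2 5.41 and 0.651, Nusap1 2.86 and 0.403, and Prc1 5.79 and 0.417. For Mki67 the ratios were 3.66 and 0.343 and for Top2a 6.83 and 0.357. Outside mitosis they were 2.71 and 0.63 for Rrm2, 3.3 and 0.583 for Ccnd1, and 6.59 and 0.612 for Ccne1. When no doublets were removed, Ccnd1 and Cenpe were still called lower in the old, and the other 12 of these 14 genes were not. Without the Hmga2-expressing gate the young ratios of Ccnd1 and Rrm2 were 1.27 each and no longer called, and that of Ccnd1 was 1.02 without the Hmga2-led cluster as well. The other 12 kept a young call, at 1.69 (Nusap1) to 3.25 (Cenpe). In the microglia gate the share of cells at 10 or more member UMIs had ratios of 3.86 and 0.508. The mitotic share of that gate, by contrast, had 7.55 (3.16 to 21.9) and 1.55 (0.367 to 7.46).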

How the results depend on the processing

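The share of cells at the threshold depends on where it is set. With values in the order young sham, then young tumour, then old sham, then old tumour, it was 11.5%, 18.6%, 15.1% and 14.3% at 5 UMIs, 1.82%, 7.34%, 0.955% and 1.19% at 20, 1.5%, 6.97%, 0.682% and 0.977% without Ccnd1, Ccnd2 and Hmgb2, 8.29%, 15.6%, 7.92% and 7.03% after thinning (3 of 2000 UMIs), and 1.22%, 6.34%, 0.441% and 0.539% by the mitotic count, which was added after seeing the data. With no doublets removed it was 4.84%, 11.5%, 5.09% and 5.43%, and with the stricter filter 4.69% in young sham and 11.5% in young tumour. Young tumour was highest under each of these. Gates of 20 or more cells with a share above 10% numbered 8, 9, 6 and 6, and 13, 16, 13 and 13 at 5 UMIs, 4, 5, 1 and 2 at 20, 4, 5, 2 and 2 without the 3 genes, 4, 4, 1 and 1 by the mitotic count, and 5, 3 and 3 in young sham, old sham and old tumour without cells of a second gate. In old tumour against old sham, the 1 member called higher became 0 at a minimum of 100 UMIs, 0 without the blood gates and 4 with no doublets removed, and the 14 lower became 2 with no doublets removed. With no doublets removed the ratios of Top2a (1.21), Birc5 (1.6), Ccna2 (1.17), Rrm2 (1.7), Bub1 (1.03) and Cdca8 (1.05) turned from lower to above 1, and that of Nusap1 was 1.0. The cause was not tested. Median-centring changed no count of members by over 1.5 times. No paired analysis was possible because each group has 1 library. Depth limits rare cells: 3 mitotic cells of 41 gated T cells in young sham have an interval of 1.54% to 19.9%.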
